A study of Homo sapiens with 12 samples.

Results

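In the acute myeloid leukaemia line NOMO-1, 9 genes among 9529 were picked out because their RNA stood apart in 1 of the 2 lines made with hairpins against ALKBH5. MMP1, GPNMB, DCT, CD36 and ARPC1A were chosen as high in that line, called line D here, and ATP5B, SNRPC, HSD17B4 and MFAP4 as low. They were chosen by setting the signal of line D against that of the other hairpin line, line E, and of the control line at each time. Their differences between line D and the rest are therefore a description and carry no test.

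NOMO-1 is an established human cell line with monocytic features. Line D and line E carried a lentiviral hairpin against ALKBH5, an enzyme that removes N6-methyladenosine (m6A) from RNA, and the control cells carried a non-targeting hairpin, shNS. Actinomycin D, which blocks transcription, was given to all 3, and poly(A) RNA was sequenced at 0, 8 and 12 h. Line D and line E gave 1 library each at each time, and shNS gave 2 replicates at each time, 12 libraries in all. The letters D and E come from the headers of the deposited table, and the sources used here do not tell which hairpin each stands for. Line D is thus 1 line followed over 3 times, and nothing in these libraries separates an effect of its hairpin from any other property of that line. The labels' protocol text names lentivirus against FTO where the titles name ALKBH5, and treatment with CS1, CS2 or DMSO where the titles name actinomycin D. The titles were followed on both. Cells were selected with puromycin before the experiment, per the same text, and it is not stated whether a line is a pool or a clone.

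The deposited values are a normalised signal per gene. The summed signal of all genes ranged from 826000 to 953211 at 0 h, from 390103 to 580217 at 8 h and from 143765 to 193639 at 12 h, while the ERCC spike-ins had a median between 29.9 and 33.1. A change over time is therefore a change per unit of spike-in. The lowest total at 8 h, 390103, belonged to line D. Read depth is unknown, so values carry no counting interval. Log2 differences are on the scale of log2(signal + 1), which understates the change of genes with a low signal. In bulk RNA, fewer cells of a type and less RNA per cell cannot be told apart. Of 20 markers of monocytic leukaemia cells, 19 were among the genes analysed here, with a summed signal of 6927 in line D, against 9535 in line E and 4165 and 4098 in shNS at 0 h. ALKBH5 itself stood at 25.4 in line D, against 21.2 in line E and 84.3 and 78.6 in shNS at 0 h, which is 31.2% of the shNS mean for line D and 26.0% for line E. The gene was thus lower in both hairpin lines, and to a like extent before actinomycin D.

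The 9 genes have varied roles, some of them shared. MMP1 encodes interstitial collagenase, a secreted enzyme that cuts fibrillar collagen. CD36 is a scavenger receptor by which macrophages take up oxidised lipoprotein and long-chain fatty acids. GPNMB is a glycoprotein of melanosomes and lysosomes that macrophages also make, and DCT, dopachrome tautomerase, is an enzyme of melanin synthesis. Both are textbook targets of MITF, the master transcription factor of melanocytes, whose relatives TFEB and TFE3 govern lysosome genes in many cells. ARPC1A is a subunit of the Arp2/3 complex, which starts branched actin filaments. Among the low genes, ATP5B (ATP5F1B in current nomenclature) is the catalytic beta subunit of the mitochondrial ATP synthase, and SNRPC is the U1-C protein of the U1 small nuclear ribonucleoprotein, which recognises 5′ splice sites. HSD17B4 is the bifunctional enzyme of peroxisomal beta-oxidation, and MFAP4 is a glycoprotein bound to elastic fibres outside cells.

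Because GPNMB and DCT are known MITF targets, the promoters of the 9 genes were searched for the M-box core TCATGTG, the element MITF is known to bind, on both strands. RefSeq promoter windows (GRCh38.p14, 250 bases before to 50 after a start site) were at hand for 6 of the 9 genes, 12 windows in all: GPNMB, DCT, CD36, ARPC1A, SNRPC and HSD17B4. MMP1, ATP5B and MFAP4 are named only. The windows that hold the core are printed here in the direction of the gene, with the core in capitals, where CACATGA is TCATGTG read on the opposite strand.
GPNMB, chr7:23246525-23246824, plus strand: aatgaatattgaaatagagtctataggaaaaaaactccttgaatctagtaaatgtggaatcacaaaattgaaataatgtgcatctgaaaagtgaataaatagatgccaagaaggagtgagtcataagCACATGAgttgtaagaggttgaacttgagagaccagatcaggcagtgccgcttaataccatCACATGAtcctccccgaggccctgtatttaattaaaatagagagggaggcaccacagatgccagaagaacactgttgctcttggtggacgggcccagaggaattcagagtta
DCT, chr13:94479633-94479932, minus strand: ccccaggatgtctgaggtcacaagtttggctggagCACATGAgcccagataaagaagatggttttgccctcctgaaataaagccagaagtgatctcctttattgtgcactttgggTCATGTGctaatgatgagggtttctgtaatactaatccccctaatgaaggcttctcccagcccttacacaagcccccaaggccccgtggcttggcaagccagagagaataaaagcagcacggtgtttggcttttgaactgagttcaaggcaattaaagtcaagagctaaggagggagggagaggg
CD36, chr7:80646196-80646495, plus strand: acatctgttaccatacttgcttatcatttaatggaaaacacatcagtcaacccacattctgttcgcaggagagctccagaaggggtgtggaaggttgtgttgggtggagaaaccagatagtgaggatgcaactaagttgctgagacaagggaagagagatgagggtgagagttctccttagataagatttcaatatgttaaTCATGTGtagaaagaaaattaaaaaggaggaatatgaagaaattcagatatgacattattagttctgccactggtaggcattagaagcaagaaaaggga

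The core lay in the 1 window of GPNMB, with matches starting 123 and 62 bases before the start site, and in 1 of 2 windows of DCT, with matches starting 215 and 135 bases before it. It lay in 1 of 6 windows of CD36, starting 49 bases before the start site. Of 35116 RefSeq promoter windows of the same length, 2.92% held it. A further 4 motifs were searched on both strands, with overlaps between motifs allowed. TCACGTG, the core of lysosome genes, was in no window of the 9 genes and in 3.71% of all windows. TGAGTCA, an AP-1 site, was in windows of GPNMB and CD36 (4.95% of all). TATAAA was in windows of SNRPC and CD36 (11.5%) and CCAAT in windows of CD36 and ARPC1A (34.6%). Such matches describe the letters of these windows and show nothing about binding in these cells.

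MMP1 (chromosome 11, 102789920 to 102798160, minus strand, GENCODE release 29 on GRCh38) had the largest difference of any gene. Its signal in line D was 138 at 0 h, 119 at 8 h and 119.8 at 12 h. In line E it was 11.9, 8.77 and 6.35, and in shNS it was 9.81 and 8.17 at 0 h, 9.0 and 6.70 at 8 h, and 4.72 and 4.14 at 12 h. Line D thus held 15.4 times the shNS mean before actinomycin D, and 15.2 and 27.1 times at 8 and 12 h, while line E lay near shNS throughout. Averaged over the 3 times, line D stood 3.86 (SE 0.15) above the mean of line E and shNS on the log2 scale.

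CD36 (chromosome 7, 80369575 to 80679277, plus strand) came second in that order. Line D gave 277, 79.3 and 39.2 at 0, 8 and 12 h, and line E 53.2, 16.8 and 5.86. The shNS replicates gave 39.8 and 37.6, then 20.1 and 18.3, then 4.65 and 5.79. The excess of line D over shNS was 7.15-fold at 0 h, 4.13-fold at 8 h and 7.52-fold at 12 h, so the receptor transcript stayed several-fold higher in line D while it fell in every line. Line E lay above both shNS replicates at 0 and 12 h and below them at 8 h. The difference across times was 2.43 (SE 0.15).

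GPNMB (chromosome 7, 23235967 to 23275108, plus strand) and DCT (chromosome 13, 94436808 to 94479682, minus strand) followed the same pattern at very different levels of signal. GPNMB stood at 2177, 1854 and 1514 in line D at 0, 8 and 12 h, and at 589, 469 and 203 in line E. In shNS it stood at 878 and 858, at 835 and 781, and at 379.6 and 357. Both control replicates therefore lay between the 2 hairpin lines at every time. DCT stood at 14.8, 10.5 and 11.0 in line D and at 2.45, 1.93 and 1.18 in line E. The shNS replicates held 3.89 and 3.84, then 3.51 and 3.35, then 1.80 and 2.06. For DCT too the controls lay between the lines at every time. The differences across times were 1.89 (SE 0.16) for GPNMB and 1.95 (SE 0.14) for DCT.

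ARPC1A (chromosome 7, 99325910 to 99366262, plus strand) was high in line D and low in line E. Its signal was 194 in line D, against 53.2 in line E and 78.8 and 72.3 in shNS at 0 h. At 8 h it was 76.5 in line D, against 13.2 in line E and 42.6 and 37.3 in shNS, and at 12 h it was 33.9, 3.33, and 12.7 and 12.0 in the same order. Relative to shNS, line D held 2.57, 1.92 and 2.76 times as much at the 3 times, and line E held 70.4%, 33.1% and 27.0%. Of the 1.83 (SE 0.15) by which line D exceeded the mean of line E and shNS, part therefore comes from the low values of line E.

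ATP5B (chromosome 12, 56638175 to 56646068, minus strand) had the largest negative difference of any gene, -3.23 (SE 0.16). Line D gave 192 at 0 h, 32.5 at 8 h and 10.6 at 12 h, and line E gave 943, 504 and 155. The shNS replicates gave 718 and 689 at 0 h, 523 and 453 at 8 h, and 166 and 140.4 at 12 h. Line E lay above both controls at 0 h and between them at 12 h, so the beta subunit transcript was scarce in line D alone. The gap widened after transcription was stopped, with line D at 27.3% of the shNS mean at 0 h, 6.66% at 8 h and 6.93% at 12 h. For 86.1% of all genes line D kept a smaller share of its 0 h signal at 8 h than any other library.

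SNRPC (chromosome 6, 34757406 to 34773794, plus strand) showed the same widening. It stood at 63.3, 6.59 and 1.90 in line D and at 187, 90.1 and 23.3 in line E. In shNS it stood at 140.3 and 134, at 94.6 and 84.9, and at 25.9 and 24.1. Line D therefore held 46.2% of the shNS mean at 0 h and 7.34% and 7.63% later, a difference of -2.67 (SE 0.15) across times. The annotation lists 18 pseudogenes named after SNRPC, so reads of this gene may be shared with copies.

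HSD17B4 (chromosome 5, 119452443 to 119637199, plus strand) gave 51.6, 9.34 and 3.61 in line D and 155, 81.1 and 27.95 in line E. The shNS replicates gave 144 and 139, 107 and 95.4, and 36.6 and 34.3. Here line E lay above both controls at 0 h and below both at 8 and 12 h, and line D held 36.5%, 9.25% and 10.2% of the shNS mean. MFAP4 (chromosome 17, 19383442 to 19387240, minus strand) gave 7.53, 3.21 and 1.61 in line D and 37.9, 25.9 and 9.56 in line E. In shNS it gave 33.2 and 27.6, 30.3 and 23.8, and 11.8 and 10.6. This was the lowest of the 4 low genes in signal, and line D held 24.8% of the shNS mean at 0 h, 11.8% at 8 h and 14.4% at 12 h, so its gap widened too. The ratio of line D to shNS in the share left at 8 h was 0.479 for MFAP4 and 0.606 for the median gene. The differences across times were -2.49 (SE 0.15) for HSD17B4 and -2.28 (SE 0.15) for MFAP4.

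**Figure D1:**
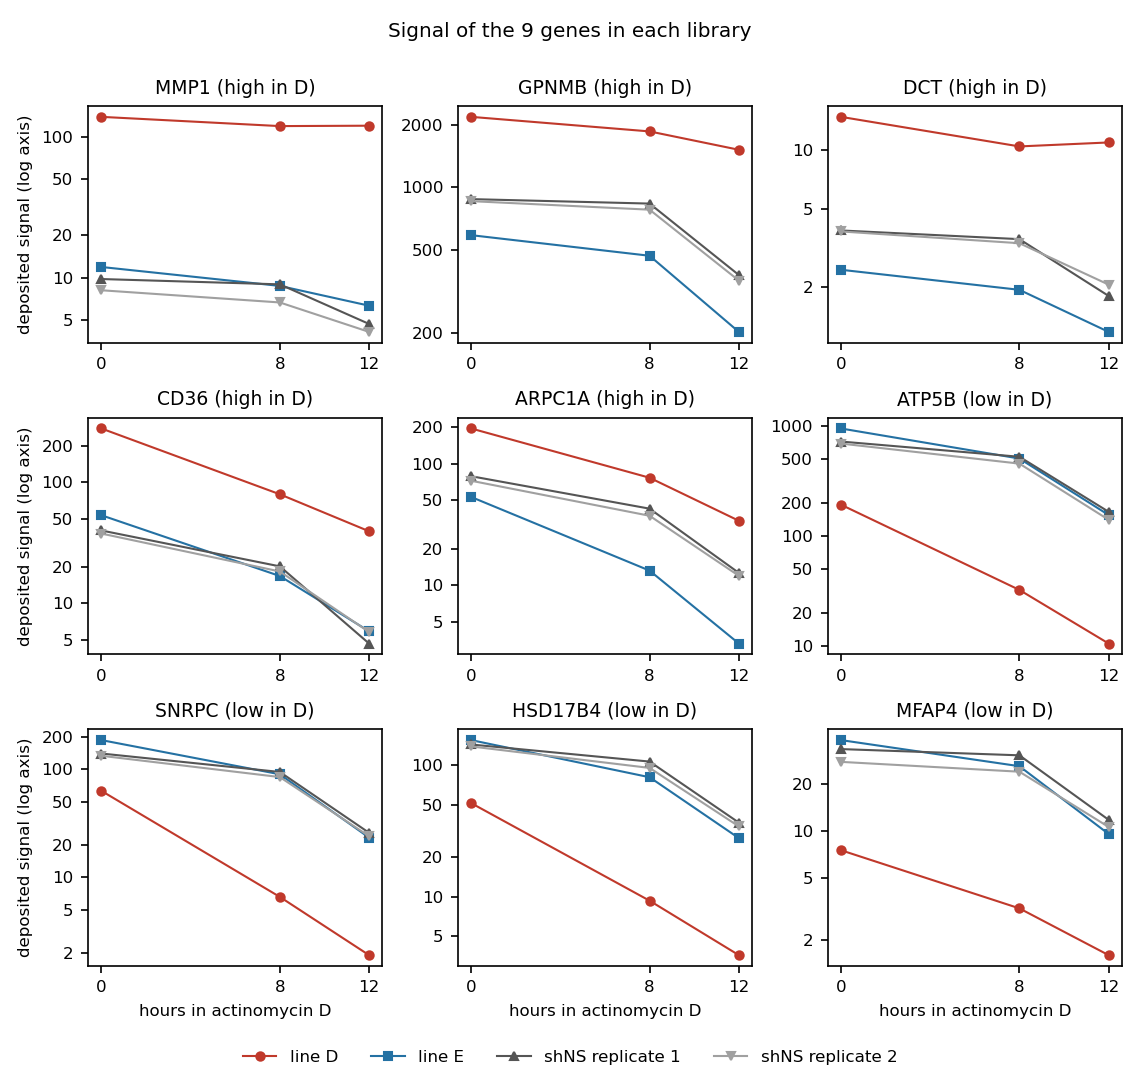
Deposited signal of each of the 9 genes (log vertical axis, a separate scale per panel) against hours in actinomycin D, for line D (red circles), line E (blue squares) and the 2 shNS replicates (dark and light triangles), 1 point per library. Line D lies above all other lines in the 5 upper genes, from MMP1 to ARPC1A, and below them in ATP5B, SNRPC, HSD17B4 and MFAP4, and the gap of these 4 to the shNS replicates widens from 0 to 8 h. The share of the 0 h signal left at 8 h was lowest in line D for 86.1% of all genes.

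All 5 high genes lay above, and all 4 low genes below, every other library of the same time at each of the 3 times. Among the 9529 genes, 12.4% lay above in that way and 10.9% below, and since the rule used these values nothing is read from the counts. With a gap of over 2-fold asked for at every time, 4 of the 5 high genes passed, ARPC1A being the exception, against 0.367% of all genes. The 4 low genes all passed, against 0.399% of all genes. The 9 genes are not simply the extremes of that ranking. From the highest difference down, MMP1 and CD36 held ranks 1 and 2, DCT and GPNMB ranks 8 and 9, and ARPC1A rank 11. Between CD36 and DCT stood LOC105375773 (2.32), VWA5A (2.06), ITGAM (2.04), PRCP (2.00) and HIST1H2BK (1.98), and NQO1 (1.85) stood just above ARPC1A. Just below ARPC1A came CTSA (1.81) and FTH1 (1.70). From the lowest up, ATP5B held rank 1, and SNRPC, HSD17B4 and MFAP4 ranks 4, 5 and 6. SLC2A3 (-3.03) and PFKFB4 (-3.02) stood between ATP5B and SNRPC, and ENO2 (-2.17) and ANKRD27 (-2.14) came next after MFAP4.

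The genes were named as altered in line D alone, but in 3 of the 9 line E stood on 1 side of the controls throughout. Line E lay below both shNS replicates at every time for ARPC1A, GPNMB and DCT, as it did for 15.1% of all genes. Line E minus shNS, averaged over the times, stood at -1.21 (SE 0.16) for ARPC1A, -0.73 (SE 0.17) for GPNMB and -0.51 (SE 0.15) for DCT. For these 3 genes the hairpin lines thus moved to opposite sides of the control. MMP1 stood at 0.32 (SE 0.16), CD36 at 0.14, ATP5B at 0.17, SNRPC at 0.12, MFAP4 at 0.02 and HSD17B4 at -0.17. ALKBH5, by contrast, was low in both lines, at -2.28 (SE 0.16) in line E minus shNS.

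**Figure D2:**
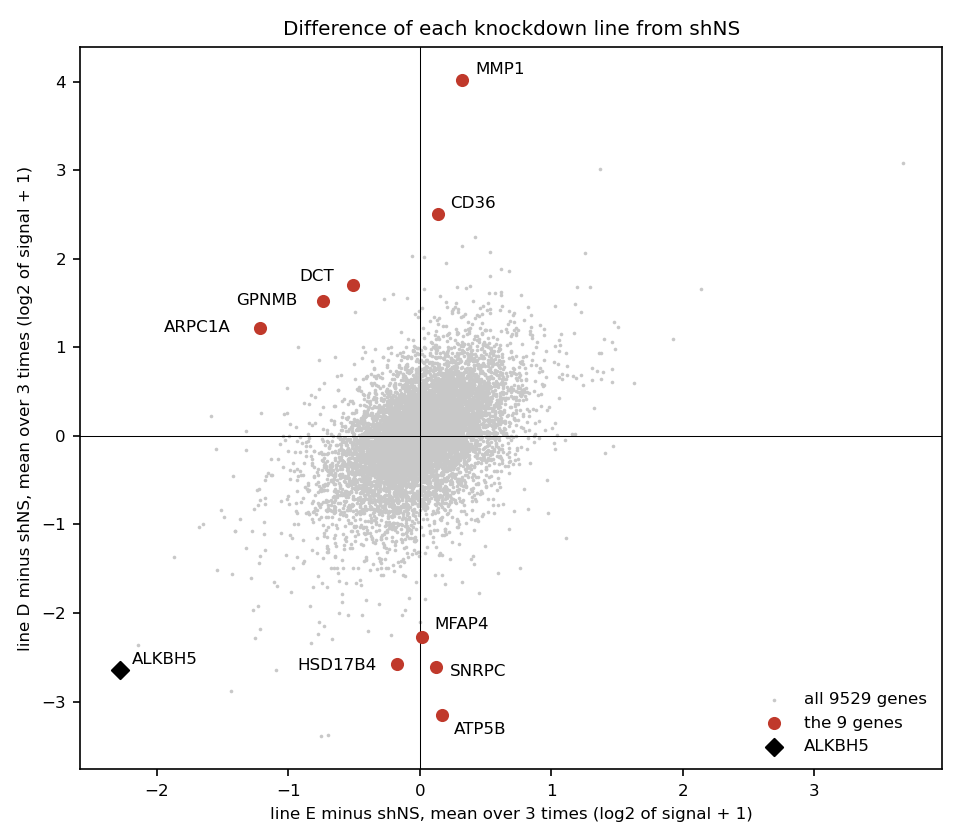
Difference of line D from shNS (vertical axis) against that of line E from shNS (horizontal axis), each the mean over 3 times in log2(signal + 1), for all 9529 genes (grey), the 9 genes (red) and ALKBH5 (black diamond). Both axes share the shNS libraries, so the slant of the grey cloud is not a result. MMP1, CD36 and the 4 low genes lie close to the vertical line at 0, while ARPC1A, GPNMB and DCT lie in the upper left, at -1.21, -0.73 and -0.51 on the horizontal axis.

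The share of the 0 h signal left at 8 and 12 h is computed from the same libraries by which the genes were chosen, with 1 library of line D at each time. It is a description, and nothing is read from its ranks. Line D kept 10.4% of its SNRPC signal at 8 h, against 48.2% in line E and 67.5% and 63.5% in shNS. At 12 h it kept 3.01%, against 12.5% in line E and 18.4% and 18% in shNS. Ordered by the ratio of line D to shNS in percent left, SNRPC held rank 12 from the lowest of 9529 genes at 8 h and rank 3 at 12 h. ATP5B kept 16.9% in line D, against 53.4% in line E and 72.8% and 65.8% in shNS at 8 h, and 5.52%, 16.4%, and 23.1% and 20.4% at 12 h. The ratio of ATP5B held ranks 50 and 13. HSD17B4 kept 18.1% in line D, against 52.2% in line E and 74.2% and 68.7% in shNS at 8 h, and 6.995%, 18%, and 25.5% and 24.7% at 12 h, with ranks 59 and 24. In these libraries the mRNAs of the splicing factor, the ATP synthase subunit and the peroxisomal enzyme were lower in line D at 0 h and had a smaller share left at 8 and 12 h.

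MFAP4 showed this less. It kept 42.6% in line D, against 68.2% in line E and 91.2% and 86.5% in shNS at 8 h, and 21.4%, 25.2%, and 35.4% and 38.5% at 12 h. Its ratio of line D to shNS held ranks 1873 and 871 from the lowest. All 4 low genes kept less in line D than in the other 3 libraries at both times. That was also true of 86.1% of all genes at 8 h and of 32.8% at 12 h, so at 8 h the order alone describes nearly the whole library. The median gene kept 23.9% in line D, against 33.6% in line E and 42.2% and 41.1% in shNS at 8 h, and 10.9%, 10.7%, and 11.9% and 12.9% at 12 h. The ALKBH5 transcript itself kept 5.97% in line D, against 20.2% in line E and 42.5% and 40.9% in shNS at 8 h. How far the low 8 h total of line D bears on these shares was not tested.

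Among the high genes, 4 kept more in line D than in any other library at 12 h, as did 30.2% of all genes, and none did at 8 h, where 1.88% of all genes did. MMP1 kept 86.0% in line D at 8 h and 86.6% at 12 h. It kept 73.4% and 53.2% in line E, and in shNS 91.7% and 81.9% at 8 h and 48.1% and 50.7% at 12 h. The collagenase transcript had about the same share left at 8 and 12 h in line D, and a smaller share at 12 h in the other 3. DCT behaved likewise, with 70.6% and 74.0% in line D at 8 and 12 h, 79.0% and 48.1% in line E, and 90.3% and 87.1%, then 46.3% and 53.5%, in shNS. GPNMB kept 69.5% in line D at 12 h, against 34.4% in line E and 43.3% and 41.6% in shNS. ARPC1A kept 17.5% in line D, against 6.25% in line E and 16.1% and 16.6% in shNS at 12 h, so for this actin gene it was line E that stood apart. Its ratio of line E to shNS held rank 55 from the lowest among all genes at 8 h and rank 21 at 12 h. CD36 was the exception, keeping 14.2% in line D, against 11.0% in line E and 11.7% and 15.4% in shNS at 12 h.

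**Figure D3:**
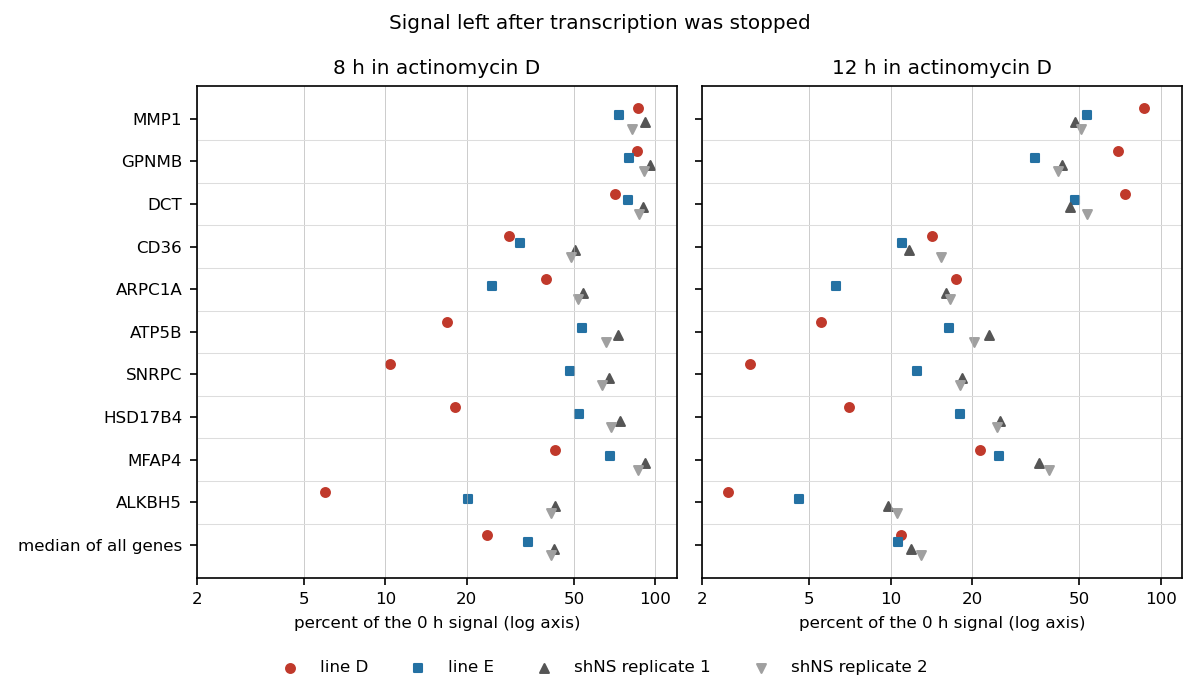
Percent of the 0 h signal left at 8 h (left panel) and 12 h (right panel) on a log axis for the 9 genes, ALKBH5 and the median of all genes, with 1 point for line D (red circles), line E (blue squares) and each shNS replicate (triangles). Line D lies far left of the others for ATP5B, SNRPC and HSD17B4 in both panels, and right of the others for MMP1, GPNMB and DCT at 12 h.

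The change of each transcript over time in the control cells is also a description, since the shNS values at each time entered the choice of the genes. Over all 9529 genes limma with Benjamini-Hochberg adjustment called 94.4% lower at 8 h than at 0 h in shNS and 99.9% lower at 12 h. At 8 h the shNS difference from 0 h on the log2 scale was -0.98 (SE 0.14) for CD36, -0.90 for ARPC1A, -0.61 for SNRPC, -0.53 for ATP5B and -0.48 (SE 0.14) for HSD17B4. It was -0.18 for MMP1, -0.16 for MFAP4, -0.14 for DCT and -0.10 for GPNMB. The median of all genes stood at -1.15, below all 9.

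At 12 h the difference was -0.73 (SE 0.13) for DCT, -0.88 for MMP1, -1.23 for GPNMB, -1.36 for MFAP4, -1.97 for HSD17B4, -2.20 for ATP5B, -2.41 for SNRPC, -2.52 for ARPC1A and -2.68 (SE 0.14) for CD36. The median of all genes stood at -2.56, and CD36 was the 1 gene of the 9 below it. Of all genes, 99.7% had a lower value than DCT, 99.3% than MMP1, 96.9% than GPNMB and 95.2% than MFAP4. These changes are per unit of spike-in. With median-of-ratios scaling, which sets the typical gene equal between libraries and moves the median of all genes to 0.04 at 8 h and 0.01 at 12 h, the 9 values turned positive, from 0.28 to 1.20 at 8 h and from 0.11 to 1.78 at 12 h. That scaling called 3995 genes higher and 3709 lower at 8 h, against 14 and 8994 on the deposited scale.

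The other genes of each pathway, from lists drawn up by known function but with earlier results of these data known, were tested with limma for line D against the mean of line E and shNS across times. Over all 9529 genes 19.4% were called higher in line D and 18.5% lower, and the median of all genes was 0.02. Without the 8 h library of line D these calls were 3450 higher and 1046 lower, against 1847 and 1761 with it. Each pathway list is therefore given both ways, and with its range over the 25 alternatives run. Line D is a single line, so the p-values compare these libraries and say nothing of a second line made with the same hairpin.

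In the Arp2/3 complex most called genes lay on the side of ARPC1A. Of 8 genes of the complex other than ARPC1A, 6 rose in line D and 1 fell, with a median of 0.65. The same counts were found without the 8 h library of line D. Line E was called lower than shNS in 2 of the 8 and higher in 0. In 7 of the 25 alternatives 4 rose and 1 fell, among them those without the 0 h or 12 h library of line D, those without the 8 h or 12 h library of line E, and with each gene's own spread. ARPC5 rose by 0.93 (SE 0.15, adjusted p = 2.61e-08) and ARPC5L by 0.87 (SE 0.15, adjusted p = 9.55e-08). ACTR2, the Arp2 protein of the complex, went the other way at -1.28 (SE 0.15, adjusted p = 9.26e-15). At 0 h ARPC5 stood at 306 in line D, against 159.7 in line E and 154 and 123 in shNS. ACTR2 stood at 243 in line D, against 405 in line E and 340.1 and 309 in shNS. The summed signal of the 8 genes at 0 h was 2433 in line D, against 1965 in line E and 1687 and 1568 in shNS. At 8 h line D lay between the shNS replicates, at 1056 against 952 in line E and 1193 and 1046 in shNS. At 12 h the sum was 450 in line D, against 286 in line E and 384 and 349 in shNS. Of the genes that regulate the complex, 0 of 13 were higher and 4 were lower. CYFIP2 (-1.17, adjusted p = 1.09e-12), WASF2 (-0.63, adjusted p = 0.000223) and WASF1 (-0.40, adjusted p = 0.0291), all of the WAVE complex that switches Arp2/3 on, were among those lower. WASF1 missed the threshold in 11 of 25 alternatives, and without the 8 h library of line D the list stood at 3 higher and 2 lower. Over the alternatives 0 to 3 were higher and 2 to 7 lower, with 2 lower also when the 12 h library of line D, of shNS replicate 1 or of shNS replicate 2 was left out, or the 8 h library of shNS replicate 2, or that of line E at 8 h or at 0 h.

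Most partners of ATP5B and SNRPC were not lower in line D. Of 19 other ATP synthase genes, 6 were higher in line D and 1 was lower, with a median of 0.31, and without the 8 h library of line D 13 were higher and 1 lower. ATP5E, the epsilon subunit, stood at 0.85 (SE 0.16, adjusted p = 7.27e-07), ATP5J2 at 0.56 (adjusted p = 0.00204) and ATP5O, the stalk subunit, at -0.71 (adjusted p = 3.96e-05). Without the 12 h library of line D 1 was higher and 1 lower, and ATP5J2 missed the threshold. The range over the alternatives was 1 to 13 higher, with 4 when the 0 h library of line D was left out and 10 when that of line E or the 8 h library of shNS replicate 1 was, and 1 was lower in each. Of 15 other genes of the U1 particle and the Sm ring, 4 were higher and 0 lower. SNRPG stood at 0.73 (SE 0.15, adjusted p = 1.92e-05), SNRPD1 at 0.48 (adjusted p = 0.00606) and SNRPE at 0.41 (adjusted p = 0.0212), all of them proteins of the Sm ring. That count was 9 higher without the 8 h library of line D, 1 higher without its 0 h or its 12 h library and 2 higher when the 8 h library of line E was dropped, with 0 to 2 lower over the alternatives, and SNRPD1 and SNRPE missed the threshold in 4 and 8 of 25 alternatives. At 0 h the summed signal of the 19 ATP synthase genes was 5282 in line D, against 4660.5 in line E and 3911 and 3608 in shNS, so the scarcity of ATP5B was not shared by the complex as a whole.

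Of 21 other genes of peroxisomal beta-oxidation, 2 were higher and 8 lower in line D, with a median of -0.23. CAT, which encodes catalase, stood at -0.80 (SE 0.15, adjusted p = 2.38e-06) and ECI2, an isomerase of unsaturated fatty acids, at -0.77 (adjusted p = 4.39e-06). ACOX2, the oxidase of branched chains and bile acid precursors, stood at 0.68 (adjusted p = 5.04e-05). Most of the called genes lay on the side of HSD17B4, but without the 8 h library of line D 6 were higher and 3 lower. Over the alternatives 1 to 6 were higher and 3 to 12 lower. At 0 h the summed signal of the 21 genes was 706 in line D, against 859 in line E and 730 and 636 in shNS. Line D thus lay between the shNS replicates at 0 h. At 8 h the sum was 238 in line D, against 403 in line E and 409 and 356 in shNS. The elastic fibre genes were few, with 5 tested besides MFAP4, 2 higher and 1 lower. EMILIN2, an elastin interface protein, stood at 0.64 (adjusted p = 0.000178). MFAP1 stood at 0.41 (adjusted p = 0.0252), and is known as a spliceosome protein in spite of its name. LTBP4 stood at -0.38 (adjusted p = 0.0391). MFAP1 missed the threshold in 8 and LTBP4 in 12 of 25 alternatives, and without the 8 h library of line D the count was 3 and 0. Over the alternatives it was 0 to 3 higher and 0 to 1 lower.

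On the side of the high genes, 5 of 12 other metalloproteinases, inhibitors and cofactors were higher in line D and 0 lower. MMP2, gelatinase A, rose by 1.00 (SE 0.15, adjusted p = 1.43e-09), the sheddase gene ADAM9 by 0.66 (adjusted p = 0.000123) and PLAUR, the urokinase receptor, by 0.58 (adjusted p = 0.000968). The count was 8 without the 8 h library of line D and 2 without its 12 h library, when PLAUR missed the threshold, and over the alternatives 1 to 8 were higher and 0 to 1 lower. MMP2 stood at 75.2 in line D, against 48.3 in line E and 42.2 and 40.9 in shNS at 0 h. MMP1 itself, at 3.86, was chosen for this difference.

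Of 15 other MITF and TFE factors and targets, 8 were higher in line D and 1 lower, with a median of 0.46, and 10 and 0 without its 8 h library. Over the alternatives 6 to 10 were higher and 0 to 2 lower. MCOLN1, a calcium channel of the lysosome, rose by 1.31 (SE 0.14, adjusted p = 1.42e-18) and ATP6V1H, a proton pump subunit of lysosomes, by 1.15 (adjusted p = 2.28e-12). MCOLN1 stood at 18.9 in line D, against 8.66 in line E and 4.24 and 4.85 in shNS at 0 h, so there line E lay on the side of line D. TFEB stood at -0.32 and TFE3 at 0.11, and neither passed. MITF was not analysed here.

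CD36 is a gene of lipid uptake and storage, and of 16 others tested, 3 were higher and 8 lower in line D. PPARG, the nuclear receptor known to induce CD36 in macrophages, moved by -1.12 (SE 0.15, adjusted p = 1.01e-11), and it stood at 18.5 in line D, against 30.4 in line E and 33.8 and 32.4 in shNS at 0 h. PLIN2, which coats lipid droplets, moved by -0.95 (adjusted p = 8.03e-09) and SCARB2, a lysosomal relative of CD36, by -0.85 (adjusted p = 4.60e-07). The count was 5 higher and 4 lower without the 8 h library of line D. With each gene given its own spread, in place of one shared by genes of the same level, it was 2 and 4. Over the alternatives 1 to 6 were higher and 4 to 8 lower.

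**Figure D4:**
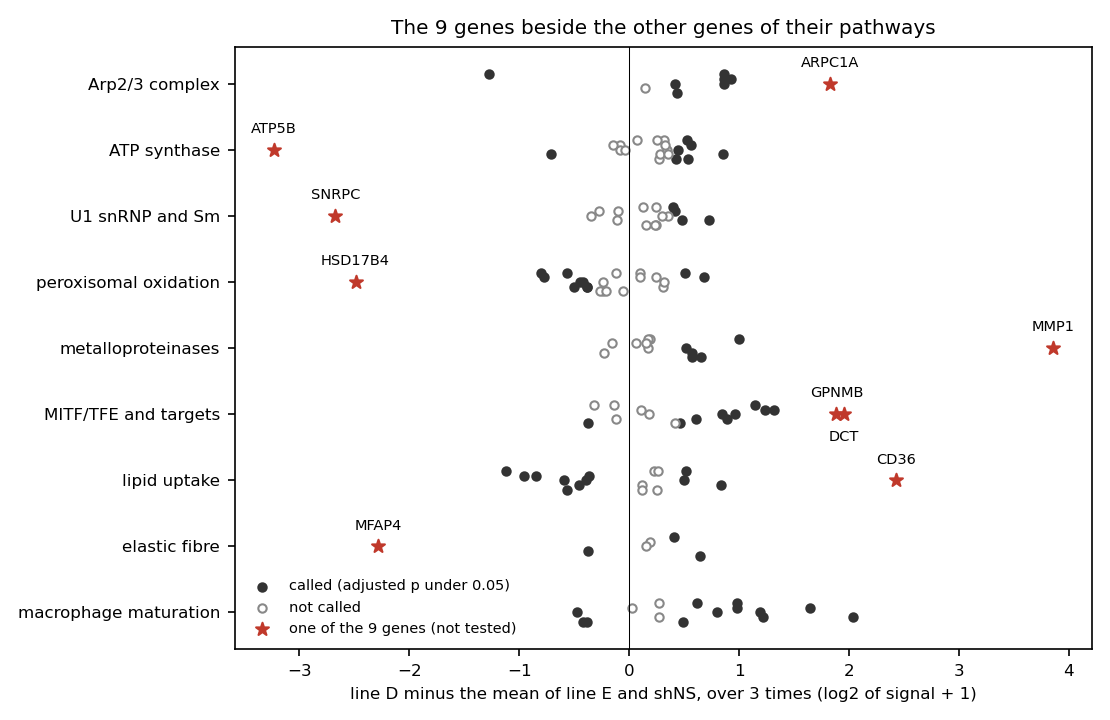
Difference of line D from the mean of line E and shNS, averaged over 3 times in log2(signal + 1), for the other genes of 9 lists (filled where called at an adjusted p under 0.05, open where not) and for the 9 genes, which were not tested (red stars). ATP5B at -3.23 and SNRPC at -2.67 lie far to the left of their partners, whose called members lie mostly to the right of 0, and MMP1 at 3.86 lies far to the right of its list. The 9 genes were chosen for this difference, so that they stand apart from their lists is not a result.

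Markers of other cells were looked for, since DCT is a gene of melanocytes and MFAP4 one of connective tissue. Of 14 melanocyte markers the only 1 analysed here was DCT itself. Of 19 fibroblast markers it was VIM, which most cells make. VIM was not called for line D against the mean of line E and shNS, but both hairpin lines lay below both shNS replicates at every time. At 0 h it stood at 152 in line D, against 104 in line E and 203 and 204 in shNS. Line E minus shNS was -1.23 for VIM. No marker was at 0, since the table holds no value of 0. Of 11 epithelial and kidney markers 0 were analysed. Endothelial markers gave 1 higher (ENG at 0.68, adjusted p = 6.64e-05) and 1 lower (CLDN5 at -0.37, adjusted p = 0.0424) of 3. Erythroid and megakaryocytic markers gave 2 lower of 2 (GP1BA at -0.44 and TFR2 at -0.34), with a summed signal of 8.58 in line D, against 15.8 in line E and 13.5 and 11.4 in shNS at 0 h. Lymphoid markers gave 1 lower of 2 (NKG7 at -0.83). CLDN5, TFR2 and GP1BA missed the threshold in 13 of 25, 12 of 24 and 3 of 24 alternatives. Without the 8 h library of line D the endothelial list stood at 2 higher and 0 lower. The erythroid and megakaryocytic list then had 1 lower, and 0 lower without the 0 h library of line D. The lymphoid list kept 1 lower in each case.

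Genes of macrophage maturation were higher in line D in 9 of 15 and lower in 3, with a median of 0.61, and 10 and 0 without its 8 h library. Over the alternatives 7 to 11 were higher and 0 to 3 lower. Against shNS, line E too was called higher in 7 of the 15 and lower in 4, with a median of 0.31. ITGAM, the CD11b integrin, rose by 2.04 (SE 0.15, adjusted p = 4.64e-40) and CTSS, the cathepsin S gene, by 1.64 (adjusted p = 8.08e-25). CTSS stood at 106 in line D, against 40.1 in line E and 51.5 and 46.3 in shNS at 0 h. The summed signal of this list at 0 h was 2805 in line D, against 2328 in line E and 1671 and 1646 in shNS. GPNMB and CD36, which macrophages make, were high in line D beside it, but line E minus shNS was -0.73 for GPNMB and 0.14 for CD36. Whether a change of maturation state plays a part in their levels was not tested. Of 19 monocytic leukaemia markers line D had 5 above and 6 below the mean of line E and shNS, with 3 higher and 5 lower without the 0 h or the 12 h library of line D. Without its 8 h library the count was 6 and 5, and over the alternatives 2 to 6 were higher and 5 to 6 lower. Line E itself lay above shNS on this list, with a median of 0.39, and at 0 h the summed signal of both hairpin lines exceeded that of both shNS replicates. CSF3R, the receptor for G-CSF, stood at -0.88 (adjusted p = 1.13e-07) and LYZ, lysozyme, at 0.93 (adjusted p = 1.99e-08).

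In the genome the 9 genes lie on 7 chromosomes, with GPNMB, CD36 and ARPC1A far apart on chromosome 7. The 36 nearest analysed genes, 2 on each side of each gene, were tested for the same difference. They ranged from -0.70 (BAZ2A, 1.36 kb from ATP5B, adjusted p = 4.17e-05) to 0.64 (CASP1, on the side of MMP1, adjusted p = 0.000159), with a median of 0.00. Of them 4 were called higher and 7 lower, 7 in the direction of the gene they flank, and 0 differed by more than 1 log2 unit. Among all genes 19.4% were called higher and 18.5% lower, so nothing is read from these counts. Only BAZ2A and CASP1 kept their call in all alternatives run. ARPC1B, a paralogue of ARPC1A that begins 7.99 kb beyond it, stood at 0.42 (adjusted p = 0.0211), a call that 7 of 25 alternatives did not make. Some neighbours were distant, with CASP1 2227 kb from MMP1, PHTF2 2412 kb from CD36 and RBM26 15030 kb from DCT. The 9 genes were chosen for this difference, so that they stand apart from their neighbours in it is not a result.

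Other annotated genes overlap 6 of the 9. MFAP4 overlaps MAPK7 on the other strand, MMP1 the noncoding WTAPP1 on the other strand, CD36 GNAT3 on the other strand, and ARPC1A and HSD17B4 protein-coding genes on their own strand. ATP5B holds the small nucleolar RNA gene SNORD59A. The sources used here do not say how counting used the strand, so reads of these pairs may not be fully separated. The hairpin sequences are not given either, so the 9 transcripts could not be compared with them. As a description, the longest run of bases shared with any ALKBH5 transcript was 14 for MMP1, 13 for ARPC1A, 12 for GPNMB, DCT and HSD17B4, and 11 for CD36, ATP5B, SNRPC and MFAP4. The median of 8955 genes was 12, and 21.7% of them shared a run as long as that of MMP1 or longer.

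The genes whose pattern was most like that of the 9 were found from Pearson's r with the mean of the high or the low genes, over 12 libraries centred within each time. These libraries come from 4 lines or replicates, so r mostly records the place of line D. For the high genes they were FKBP15 (0.991), CTSV (0.990), WDR62 (0.987), FTH1 (0.986) and FTH1P3 (0.982). FTH1 is the ferritin heavy chain, and FTH1P3 is a pseudogene copy of it that can share its reads. FTH1 stood at 1779 in line D, against 703 in line E and 661 and 633 in shNS at 0 h. CTSV, the cathepsin V gene, stood at 7.25, 2.61, and 3.15 and 3.0. For the low genes the most alike were KCNQ1 (0.998), CPNE2 (0.995), FSCN1 (0.994), SHISA5 (0.994) and ANKRD27 (0.994). FSCN1, the actin-bundling protein fascin, stood at 35.8 in line D, against 93.1 in line E and 90.3 and 76.2 in shNS at 0 h. Among the 9 themselves the 4 low genes were tightly alike, while ARPC1A was the least like the other high genes, with r of 0.753 with MMP1 and 0.776 with CD36 but 0.953 with GPNMB.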

How the data were processed

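The 9 genes and all gene lists were chosen with earlier results of these data known. The authors deposited 1 table of a normalised signal for 9529 genes and 46 ERCC transcripts in 12 libraries. STAR, RSEM and GRCh38 appear in the submitters' processing notes. Versions, settings and the unit before scaling are not stated there. No label says whether the values were scaled to the ERCC spike-ins, whose medians were nearly level. Hairpin columns were matched to their time group by name and kept as lines D and E.

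Tests ran on log2(signal + 1) with limma 3.58.1 under R 4.3.3 (mean-variance trend, empirical Bayes, Benjamini-Hochberg adjusted p under 0.05). All genes had a mean of at least 1. Terms for time and for line, in 1 model, gave line D minus the mean of line E and shNS, and line E minus shNS. A model of time-by-line means gave the shNS changes, with residual spread from the shNS pairs alone. The 9 genes are given there without a test, since the rule that chose them used the shNS values. Limma estimated the prior degrees of freedom as infinite, so each gene takes the spread shared by genes of its level and p-values are very small. A fit with each gene's own spread was therefore added after the data were seen. The procedure was tested on simulated data. No label says that the shNS replicates were grown separately, so p-values reflect the spread among these libraries alone, and it may be technical.

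Genes named are the 9 and ALKBH5, up to 3 called genes of each list with the largest difference, the 2 nearest analysed genes on each side and the 5 most alike per direction. Others named for their rank, for the order of their values or as known regulators (TFEB, TFE3, VIM) were chosen after their values were seen. Some genes that this rule names are not reported here. Positions come from GENCODE release 29, in which 9359 genes were found. The results were recomputed with a minimum mean of 5, without a filter (void, since the filter had removed no gene), with 2 other scalings, a pseudocount of 0.1, no trend, a replicate block, line means, a correlation within lines, and leaving out each time or library.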

Additional observations from a re-analysis of the deposited data

How the results depend on the processing

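The differences of the 9 genes between line D and the rest kept their direction in all 25 alternatives, from 3.65 to 4.01 for MMP1 and from -3.83 to -2.90 for ATP5B. Over all genes, limma called 3608 for line D against the rest, 5716 with median-of-ratios scaling and 2029 without the 12 h libraries, and 2609 to 4496 when single libraries were left out. For line E minus shNS it called 2122, against 4627 with median-of-ratios scaling, 906 with each gene's own spread, 1049 with line means and 581 without the 12 h libraries, and 760 to 3359 when single libraries were left out. The lowest came from dropping line E at 8 h and the highest from dropping line D at 8 h, and dropping line E left 1090 at 12 h and 1385 at 0 h. For the shNS changes by 8 and 12 h it called 9008 and 9526, and 8552 to 9135 and 9522 to 9526 when single libraries were left out. With median-of-ratios scaling these were 7704 and 7980, of which 4014 were higher and 3966 lower at 12 h, and all 18 values of the 9 genes changed sign, since that scaling sets the typical gene equal between times. At 8 h they were 0.91 for MMP1, 1.20 for GPNMB, 0.77 for DCT, 0.28 for CD36, 0.37 for ARPC1A, 0.77 for ATP5B, 0.68 for SNRPC, 0.81 for HSD17B4 and 1.07 for MFAP4. At 12 h they were 1.72 for MMP1, 1.78 for GPNMB, 1.48 for DCT, 0.11 for CD36, 0.39 for ARPC1A, 0.81 for ATP5B, 0.55 for SNRPC, 1.01 for HSD17B4 and 1.5 for MFAP4. NUPL2, the gene beside GPNMB, at -0.36, turned to 0.017 when all 8 h libraries were dropped and to 0.024 when only that of line D was, was -0.64 when line D lost its 0 h library, and the cause was not tested. Of 39 genes that the naming rule takes from the lists, 23 kept their call in every alternative. The shNS replicate numbers were not shown to pair the libraries. The deviations of replicate 1 correlated over genes at 0.271 between 0 and 8 h, 0.0651 between 0 and 12 h and 0.138 between 8 and 12 h. These correlations leave out an offset shared by all genes. The summed signal of replicate 1 exceeded that of replicate 2 at every time. It was 937164 against 826000 at 0 h, 580217 against 477840 at 8 h and 193639 against 167376 at 12 h. With the replicate number as a block, limma called 3512 genes for line D against the rest, 1987 for line E minus shNS, and 9266 and 9526 for the shNS changes. Precision is limited by 1 library per hairpin line and time.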
